A study of Mus musculus with 16 samples.

Results

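Clec12a, Clec4a2, Clec4d, Clec4e, Clec5a and Clec7a are 6 C-type lectin receptor genes of mouse myeloid cells. Their histone marks were taken from every merged ChIP-seq region whose deposited gene assignment named one of them, with the distance to its start. Of the 6 genes, 5 had a region and Clec7a had 0. The regions numbered 215 of 348079 over the marks analysed: 85 of 114597 for H3K27ac, 49 of 60720 for H3K9ac, 41 of 43128 for H3K4me3, 40 of 114913 for H3K4me1 and 0 of 14721 for H3K27me3. All 6 genes lie on chromosome 6 of mm10, and Clec4d and Clec4e are neighbours that share 9 H3K27ac, 6 H3K9ac, 5 H3K4me3 and 5 H3K4me1 regions. Many H3K27ac regions were also assigned to a second gene. They were 22 of 26 for Clec12a, 8 of 11 for Clec4a2, 16 of 22 for Clec4d, 9 of 11 for Clec4e and 19 of 24 for Clec5a. Outside the 6, these second genes were 4922502D21Rik, Clec12b, Clec4b1, Clec4b2, Clec4n, Olfr460 and Tas2r138.

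The regions were mapped in 3 lines made from ER-Hoxb8 cells, mouse granulocyte-monocyte progenitors of the C57BL/6 strain that an estrogen-dependent Hoxb8 keeps immature. The lines stably carried human P199L-ERG, human WT-ERG or the empty lentiviral vector, with ERG driven by the human PGK promoter and transduced cells sorted by GFP. ERG, a member of the ETS family, regulates genes of blood stem cells. P199L replaces a proline by leucine, and the study examined how this bears on the NCoR-HDAC3 co-repressor. All lines share the Hoxb8 transgene and growth in stem cell factor with estradiol, so each is a model of 1 immortalised progenitor line held undifferentiated. Each mark and line had 1 library, so no difference between lines has a replicate check and no p-value is given. The bounds in parentheses are 95% Clopper-Pearson intervals of the read counts, which cover counting error only. A higher mark in more cells and a higher mark in each cell cannot be told apart.

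C-type lectin receptors of myeloid cells bind sugars and lipids of microbes or molecules of dying cells. The activating members work through tyrosine motifs: Clec7a (Dectin-1, a receptor for fungal beta-glucan) carries one in its own tail, Clec4d and Clec4e (Mincle) pair with the Fc receptor gamma chain, and Clec5a pairs with DAP12. The kinase Syk and the adaptor CARD9 pass these signals on. Clec12a, which recognises uric acid crystals, and Clec4a2, a mouse relative of human DCIR, carry inhibitory motifs that recruit phosphatases. H3K27ac and H3K9ac mark active promoters and enhancers, H3K4me3 marks active promoters, H3K4me1 marks enhancers, and H3K27me3 marks silenced genes.

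The sequences before the starts are shown because ERG and its relative PU.1 bind DNA at a GGAA core and because the base composition of these loci bears on the results. Each line gives the 250 bases before the RefSeq start (GRCm38.p6, 5′ to 3′ on the strand of the gene), with GGAA or its reverse complement TTCC in capitals. The windows lie at chr6:129349994-129350243 (+) for Clec12a, chr6:123122440-123122689 (+) for Clec4a2, chr6:123261857-123262106 (+) for Clec4d, chr6:123289872-123290121 (-) for Clec4e, chr6:40585806-40586055 (-) for Clec5a and chr6:129472780-129473029 (-) for Clec7a.
Clec12a: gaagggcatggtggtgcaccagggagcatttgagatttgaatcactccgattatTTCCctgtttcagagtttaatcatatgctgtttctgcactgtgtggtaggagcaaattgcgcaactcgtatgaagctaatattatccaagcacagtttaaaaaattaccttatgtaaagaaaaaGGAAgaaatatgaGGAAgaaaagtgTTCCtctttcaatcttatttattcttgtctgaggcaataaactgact
Clec4a2: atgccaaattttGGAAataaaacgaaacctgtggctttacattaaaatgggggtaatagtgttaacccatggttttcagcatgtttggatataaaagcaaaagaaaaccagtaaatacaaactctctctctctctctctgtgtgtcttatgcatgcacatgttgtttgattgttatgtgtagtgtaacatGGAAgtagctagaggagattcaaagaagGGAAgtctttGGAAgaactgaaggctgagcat
Clec4d: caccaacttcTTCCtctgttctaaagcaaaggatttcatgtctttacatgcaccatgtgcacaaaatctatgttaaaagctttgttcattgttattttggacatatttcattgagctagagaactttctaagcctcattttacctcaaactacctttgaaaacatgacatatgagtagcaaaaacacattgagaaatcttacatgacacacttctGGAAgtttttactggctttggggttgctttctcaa
Clec4e: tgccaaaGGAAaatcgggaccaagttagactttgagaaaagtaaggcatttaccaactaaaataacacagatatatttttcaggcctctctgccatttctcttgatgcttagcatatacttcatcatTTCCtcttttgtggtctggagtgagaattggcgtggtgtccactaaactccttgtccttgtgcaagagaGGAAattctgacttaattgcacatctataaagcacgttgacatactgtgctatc
Clec5a: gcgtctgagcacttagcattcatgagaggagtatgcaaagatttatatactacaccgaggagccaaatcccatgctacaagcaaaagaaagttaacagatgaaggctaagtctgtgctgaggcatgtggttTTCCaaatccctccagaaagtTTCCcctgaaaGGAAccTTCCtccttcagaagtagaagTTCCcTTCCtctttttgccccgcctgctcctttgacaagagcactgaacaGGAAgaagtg
Clec7a: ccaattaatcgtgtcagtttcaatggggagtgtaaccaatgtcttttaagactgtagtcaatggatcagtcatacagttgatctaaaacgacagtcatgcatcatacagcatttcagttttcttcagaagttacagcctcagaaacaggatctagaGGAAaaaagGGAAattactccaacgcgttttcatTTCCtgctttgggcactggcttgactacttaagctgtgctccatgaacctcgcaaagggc

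The cores numbered 4 in Clec12a, 4 in Clec4a2, 2 in Clec4d, 3 in Clec4e, 7 in Clec5a and 3 in Clec7a. At least 1 core was present in 93.4% of 32536 distinct windows of the same length, with a median of 3. The longer GAGGAA, which contains the core and is part of the site of PU.1, was present on either strand in every member but Clec4a2, and in 23.4% of all windows. The RUNX letters TGTGGT were present in Clec12a, Clec4e and Clec5a and in 14.0% of all windows. The palindrome TTGCGCAA, of the C/EBP type and looked for after the sequences were read, was present in Clec12a alone of the 6, 140 to 133 bases before its start, and in 0.166% of all windows. GC content of the windows was 37.2% in Clec12a and Clec4a2, 35.2% in Clec4d, 39.6% in Clec4e, 46.0% in Clec5a and 42.0% in Clec7a, against a median of 52.4% over all windows. Regions of H3K27ac reached into the windows of 5 genes, and the Clec7a window was touched by H3K4me1 alone. Distances in the following are counted from the start that the deposited assignment used. It lies downstream of the RefSeq start for Clec4a2 and upstream of it for Clec12a.

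Libraries of the 4 active marks held 10268618 to 22278560 reads inside regions, and those of H3K27me3 held 768125 to 980145. Of 10 progenitor markers, 10 had an H3K27ac region at the start called in every line. Their H3K27ac summed to 51997 normalized reads in P199L-ERG cells, 58047 in WT-ERG cells and 55839 in empty-vector cells. The log2 ratio of P199L-ERG over WT-ERG was -0.16, and 0.15 adjusted for GC content. By the same measure, 4 of 5 monocyte and macrophage markers had such a region. Their H3K27ac summed to 12680 normalized reads in P199L-ERG cells, 7287 in WT-ERG cells and 8740 in empty-vector cells (P199L-ERG over WT-ERG 0.80, adjusted 0.29). Of 6 mature neutrophil markers, 6 had an H3K27ac region, but 3 had one at the start called in every line. They summed to 7398 normalized reads in P199L-ERG cells, 5614 in WT-ERG cells and 5575 in empty-vector cells (P199L-ERG over WT-ERG 0.40, adjusted 0.24). The same ratio of the other marker sets ran from -1.12 (erythroid cells) to 0.55 (dendritic cells) as deposited. Adjusted, it ran from -0.08 to 0.17. The part of more mature cells in the results was not tested. In the H3K27ac and H3K4me3 libraries of P199L-ERG the ratio to WT-ERG ran with base composition. With all H3K27ac regions divided into 10 equal groups by GC content, the group lowest in GC (median 41.9%) had a median log2 ratio of 1.58, and the highest (62.4%) had -1.19. The matching medians were 0.86 and -0.53 for H3K4me3, and 0.10 and -0.09 for H3K9ac. The H3K27ac regions of the receptor genes had a median GC content of 43.5%, against 51.7% for all H3K27ac regions, so values adjusted for GC content are given beside the deposited ratios.

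Summed over its regions, H3K27ac was higher in P199L-ERG than WT-ERG cells at 5 of 5 receptor genes by 1.5-fold or more, and H3K4me3 likewise at 5 of 5. Over all genes, 11.3% were higher by that much in H3K27ac and 5.43% in H3K4me3. Only Clec4a2 kept a difference of that size after the GC adjustment in either mark, where 3.23% of all genes did so in H3K27ac and 2.08% in H3K4me3. The median log2 ratio of the 5 genes in H3K27ac was 1.29 as deposited and 0.16 adjusted, while over all genes it was -0.36 and -0.00. H3K9ac differed by less than 1.5-fold between P199L-ERG and WT-ERG cells at 5 of 5 genes. Over all genes, only 0.971% were higher and 1.44% lower by 1.5-fold or more in that mark. The log2 ratios of the 5 genes lay between -0.08 and 0.38 as deposited and between -0.13 and 0.30 adjusted. Scaling to the total reads inside regions moved the median log2 ratio of all genes, P199L-ERG over WT-ERG, up by 0.32 in H3K27ac, 0.25 in H3K4me3 and 0.03 in H3K9ac.

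**Figure D1:**
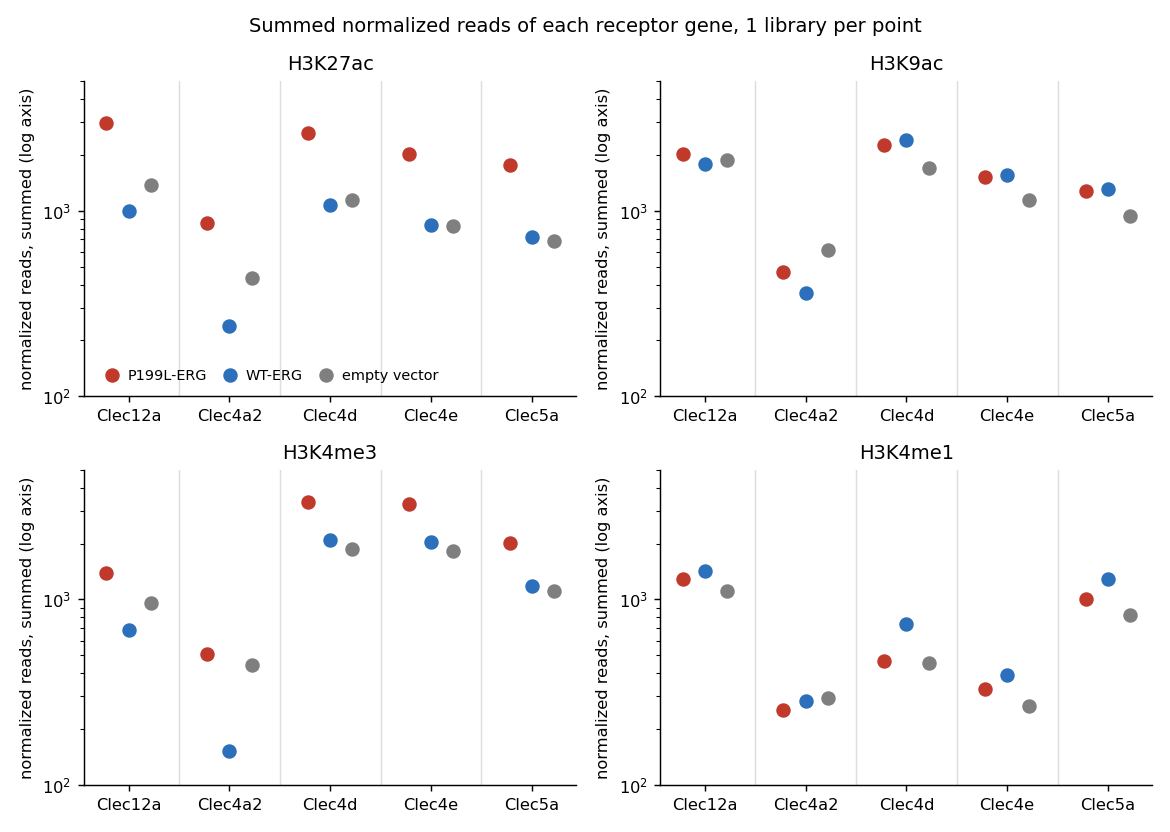
Normalized reads summed over the regions of each receptor gene (log axis) in P199L-ERG, WT-ERG and empty-vector cells, 1 library per point and 1 panel per mark. P199L-ERG is highest for all 5 genes in H3K27ac and H3K4me3, and WT-ERG is lowest for Clec4a2 in H3K27ac, H3K9ac and H3K4me3.

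Against empty-vector cells, H3K27ac in P199L-ERG cells was higher by 1.5-fold or more at 5 of 5 genes (10.3% of all genes) and H3K4me3 at 3 of 5, Clec4d, Clec4e and Clec5a (5.57% of all genes). After adjustment 0 of 5 were past 1.5-fold in H3K27ac, with log2 ratios of 0.05 to 0.44, and in H3K4me3 Clec5a was at 0.60 and Clec4a2 at -0.60. Over all genes, 7.22% were higher and 8.13% lower by 1.5-fold or more in adjusted H3K27ac. In adjusted H3K4me3 the shares were 2.53% and 1.95%. The H3K27ac ratio of WT-ERG over empty vector ran less with base composition, from a median of -0.25 in the regions lowest in GC to 0.16 in the highest. Clec4a2 was lower in WT-ERG than empty-vector cells in H3K27ac (4.33% of all genes were lower by 1.5-fold or more), H3K9ac (2.91%) and H3K4me3 (1.82%), and was so after adjustment in H3K27ac (3.96%) and H3K4me3 (2.07%), with -0.90 adjusted in H3K9ac. Clec4d, Clec4e and Clec5a had more H3K9ac in WT-ERG cells, by 0.44 to 0.49 on the log2 scale (0.39 to 0.43 adjusted), which is under 1.5-fold. Clec12a was at -0.47 in H3K27ac (-0.17 adjusted) and -0.08 in H3K9ac (-0.19 adjusted). With reads scaled to the total inside regions, Clec4d, Clec4e and Clec5a were past 1.5-fold (0.61 to 0.66), so that the split of members past the threshold was 3 higher and 1 lower in place of 0 higher and 1 lower.

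**Figure D2:**
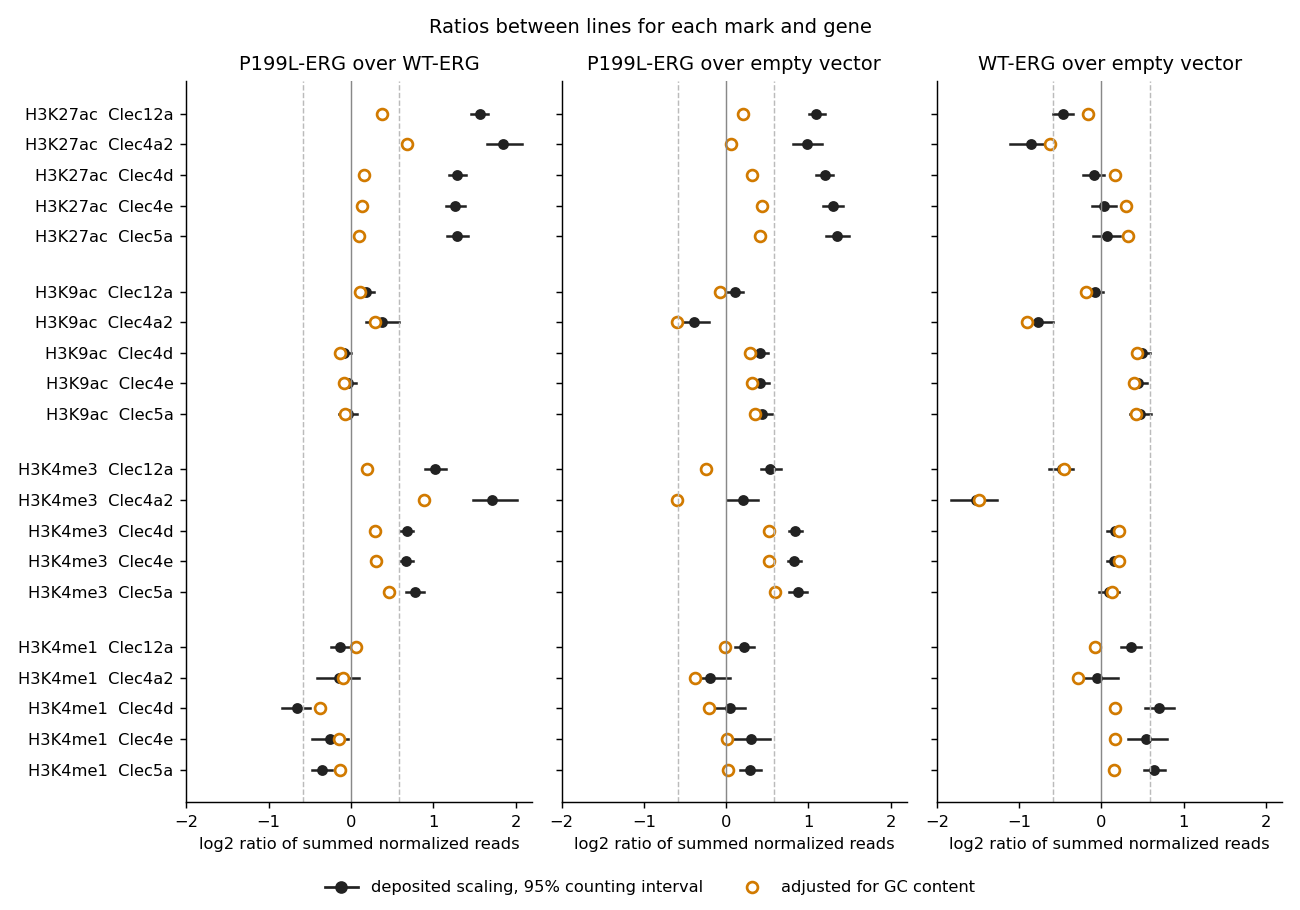
Log2 ratios of summed normalized reads between lines for each mark and gene, with 95% counting intervals (black) and after adjustment for GC content (open circles). Dashed lines are at 1.5-fold. The H3K27ac ratios of P199L-ERG over WT-ERG run from 1.27 to 1.85 as deposited and from 0.09 to 0.68 adjusted, and the H3K9ac ratios move little.

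Per kb of region, H3K27ac in P199L-ERG cells was highest at Clec4e (213 normalized reads per kb), then Clec12a (194), Clec4d (189), Clec4a2 (174) and Clec5a (155). In WT-ERG cells the same level ran from 48.0 at Clec4a2 to 88.6 at Clec4e, and in empty-vector cells from 60.6 at Clec5a to 90.6 at Clec12a. Clec4a2 was thus the lowest of the 5 in WT-ERG cells, while in empty-vector cells it was next to the top at 87.5 per kb. In H3K4me3 the 3 activating receptors held 249 to 278 normalized reads per kb in P199L-ERG cells, 156 to 168 in WT-ERG cells and 139 to 152 in empty-vector cells. All 5 H3K4me3 regions of Clec4e also count for Clec4d, so these genes do not give separate measurements. The largest shared region held 62.6% of the Clec4d sum in P199L-ERG cells, 69.3% in WT-ERG cells and 74.8% in empty-vector cells. Clec12a and Clec4a2 were lower in every line, with 165 and 106 in P199L-ERG cells, 80.9 and 31.5 in WT-ERG cells, and 113 and 91.9 in empty-vector cells. Without replicates, the order of neighbouring genes has no error beyond counting.

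Clec12a (chr6:129342691-129365303, plus strand), an inhibitory receptor, had the highest H3K27ac sum of the 5 in P199L-ERG and empty-vector cells, and Clec4d had the highest in WT-ERG cells. Its 26 regions summed to 2961 normalized reads in P199L-ERG cells, 1001 in WT-ERG cells and 1383 in empty-vector cells. The log2 ratio of P199L-ERG over WT-ERG was 1.56 (1.46 to 1.67) and 0.37 adjusted, and that of WT-ERG to empty vector was -0.47 (-0.59 to -0.34) and -0.17 adjusted. P199L-ERG was highest in 25 of 26, and WT-ERG was lowest in 18 of 26. For these counts, and those of the genes below, the share over all regions was not computed. All H3K27ac regions in the group lowest in GC had the same order by their medians. Their median log2 ratio was 1.58 for P199L-ERG over WT-ERG, 1.41 for P199L-ERG over empty vector and -0.25 for WT-ERG over empty vector. All 26 regions were called as peaks in P199L-ERG cells, against 12 in WT-ERG cells and 13 in empty-vector cells. Over all 114597 H3K27ac regions, the calls numbered 78342, 78325 and 69995 in the same order of lines.

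Single H3K27ac regions of Clec12a differed in how the lines compared, also within the gene body. The broadest H3K27ac signal was a 2623-base intronic region centred 6683 bases after the start (chr6:129355335-129357958). It held 861 normalized reads in P199L-ERG cells, 236 in WT-ERG cells and 229 in empty-vector cells. P199L-ERG exceeded WT-ERG there by 1.86 (1.66 to 2.09, adjusted 0.76) and empty vector by 1.90 (1.69 to 2.14, adjusted 1.09), while WT-ERG over empty vector was within counting error at 0.04 (-0.24 to 0.32, adjusted 0.33). A region centred at -5733 bases from the start (negative values lie before it), in an intron of a longer annotated transcript, instead held 283 normalized reads in P199L-ERG cells, 102 in WT-ERG cells and 179 in empty-vector cells. WT-ERG was lower than empty vector there by a log2 ratio of -0.80 (-1.19 to -0.44, adjusted -0.52). In the gene body, the region centred at 14397 bases was also lower in WT-ERG than empty-vector cells, at -1.21 (-1.79 to -0.73, adjusted -0.93). The region centred at -730 bases was likewise lower in WT-ERG, at 372 normalized reads in P199L-ERG cells, 184 in WT-ERG cells and 296 in empty-vector cells, and the P199L-ERG excess over WT-ERG was 1.01 (0.76 to 1.28, adjusted 0.14).

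That region spans the deposited start of Clec12a but ends before the RefSeq start. The regions centred nearest to the deposited start were smaller. The nearest in H3K27ac, just after the start, had 76 reads in P199L-ERG cells, 10 in WT-ERG cells and 26 in empty-vector cells, and P199L-ERG exceeded WT-ERG by 2.59 (1.87 to 3.94, adjusted 0.92). The nearest H3K9ac region had 139 reads in P199L-ERG cells, 138 in WT-ERG cells and 132 in empty-vector cells, and the nearest H3K4me3 region had 49 in P199L-ERG cells, 41 in WT-ERG cells and 44 in empty-vector cells. Neither differed between lines by more than counting error.

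As deposited, the sums of H3K9ac and H3K4me3 at Clec12a had the same order of lines as H3K27ac. H3K9ac differed less between the lines than H3K27ac. After adjustment the log2 ratio of P199L-ERG over empty vector was 0.21 in H3K27ac, but -0.08 in H3K9ac and -0.25 in H3K4me3. In H3K9ac WT-ERG and empty vector were within counting error, at -0.08 (-0.17 to 0.02, adjusted -0.19). H3K9ac summed to 2017 normalized reads in P199L-ERG cells, 1776 in WT-ERG cells and 1873 in empty-vector cells, a log2 ratio of P199L-ERG over WT-ERG of 0.18 (0.09 to 0.27, adjusted 0.11). In H3K4me3, 1 region of 3734 bases held most of the signal. It begins just after the deposited start and covers the RefSeq start. It had 1111 normalized reads in P199L-ERG cells, 505 in WT-ERG cells and 713 in empty-vector cells. Its log2 ratio of P199L-ERG over WT-ERG was 1.13 (0.99 to 1.29) and 0.24 adjusted. WT-ERG to empty vector was -0.49 (-0.67 to -0.33) and -0.43 adjusted, so the lower WT-ERG value changed little with the adjustment. H3K4me1 summed to 1288 normalized reads in P199L-ERG cells, 1415 in WT-ERG cells and 1104 in empty-vector cells.

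Clec4a2 (chr6:123106428-123143999, plus strand), the other inhibitory receptor, had the lowest sums in H3K27ac, H3K9ac and H3K4me3 but the largest ratios of P199L-ERG over WT-ERG in each. Its 11 H3K27ac regions held 861 normalized reads in P199L-ERG cells, 238 in WT-ERG cells and 433 in empty-vector cells. P199L-ERG exceeded WT-ERG by 1.85 (1.65 to 2.07, adjusted 0.68), and WT-ERG was below empty vector by -0.86 (-1.11 to -0.63, adjusted -0.62). WT-ERG was the lowest line in 11 of 11 H3K27ac regions, in 9 of 11 H3K9ac regions and in 8 of 8 H3K4me3 regions. With the adjustment WT-ERG was below empty vector in 10 of 11, 11 of 11 and 8 of 8 of them.

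The start of Clec4a2 carried the widest gap. A 700-base intronic H3K27ac region centred 382 bases after the start (chr6:123123499-123124199) had 117 reads in P199L-ERG cells, 8 in WT-ERG cells and 45 in empty-vector cells. It was called as a peak in P199L-ERG and empty-vector cells and not in WT-ERG cells. The largest H3K27ac region, just before it (centred at -442 bases), held 248 normalized reads in P199L-ERG cells, 59.7 in WT-ERG cells and 115 in empty-vector cells. For the 700-base region the log2 ratio was 3.45 (2.74 to 5.01, adjusted 1.86) for P199L-ERG over WT-ERG and -2.37 (-3.95 to -1.55, adjusted -2.06) for WT-ERG over empty vector. The H3K4me3 region across the start (1726 bases) held 320 normalized reads in P199L-ERG cells, 94.4 in WT-ERG cells and 292 in empty-vector cells. P199L-ERG and empty vector were within counting error of each other there, at 0.13 (-0.10 to 0.36), although the adjusted value was -0.70. The H3K9ac region at the same place held 189 normalized reads in P199L-ERG cells, 144 in WT-ERG cells and 296 in empty-vector cells, so both ERG lines were below empty vector in that mark. Summed over the gene, H3K9ac was 467 in P199L-ERG cells, 358 in WT-ERG cells and 612 in empty-vector cells, with log2 ratios to empty vector of -0.39 (-0.57 to -0.21, adjusted -0.60) for P199L-ERG and -0.77 (-0.97 to -0.58, adjusted -0.90) for WT-ERG, which share that library. The adjusted P199L-ERG value is past 1.5-fold and the deposited one is not. Far from the start, at -27295 bases, lay an intergenic H3K27ac region also assigned to Clec4b1. It held 145 normalized reads in P199L-ERG cells, 31.9 in WT-ERG cells and 44.8 in empty-vector cells. There WT-ERG and empty vector were within counting error, at -0.46 (-1.22 to 0.23, adjusted -0.11). In an intronic region at 4801 bases P199L-ERG and empty vector were within counting error of each other as deposited, at -0.12 (-0.53 to 0.28), but at -0.65 adjusted, with 104 normalized reads in P199L-ERG cells, 68.9 in WT-ERG cells and 114 in empty-vector cells.

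**Figure D3:**
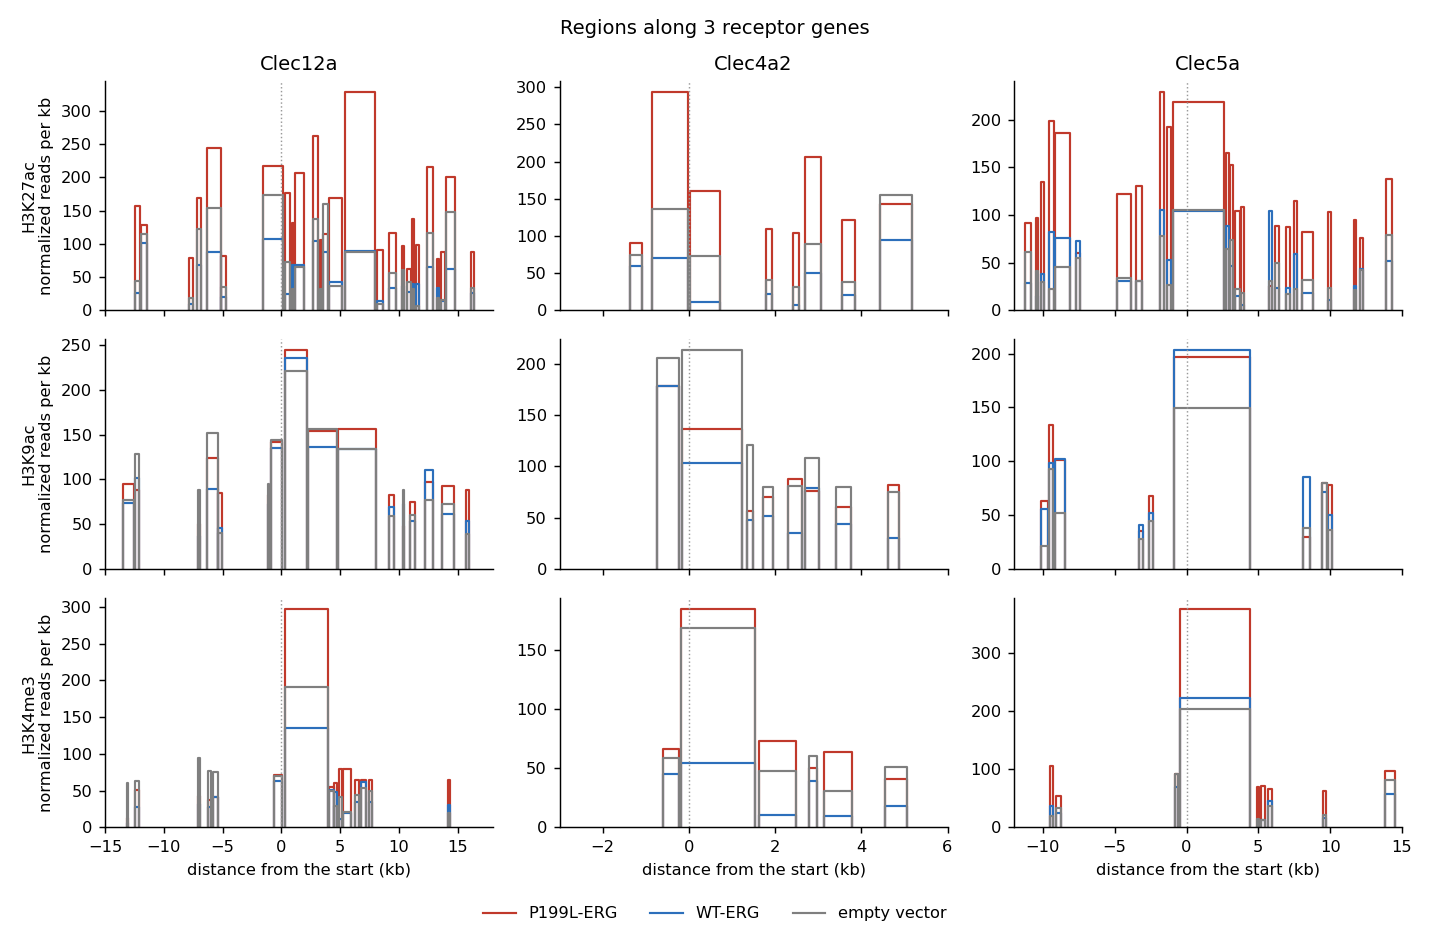
Normalized reads per kb of each region along Clec12a, Clec4a2 and Clec5a against distance from the start (kb, negative before the start), for H3K27ac, H3K9ac and H3K4me3. Each box is 1 region and its height is the level in 1 library, with a separate vertical axis per panel. 3 H3K27ac, 3 H3K9ac and 2 H3K4me3 regions of Clec4a2 centred at -27295 bases or farther lie outside its panels. At the start of Clec4a2, WT-ERG is low in H3K27ac and H3K4me3, whereas at Clec5a the WT-ERG and empty-vector levels are close.

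Clec4e (chr6:123281789-123289870, minus strand), the receptor for mycobacterial cord factor, and Clec4d (chr6:123262111-123275265, plus strand), its partner, had WT-ERG sums of H3K27ac close to those of empty vector. Clec4e had 2026 normalized reads of H3K27ac in P199L-ERG cells, 841 in WT-ERG cells and 826 in empty-vector cells over 11 regions, and P199L-ERG exceeded WT-ERG by 1.27 (1.15 to 1.39, adjusted 0.14). Clec4d had 2614 in P199L-ERG cells, 1070 in WT-ERG cells and 1140 in empty-vector cells over 22 regions, a log2 ratio of P199L-ERG over WT-ERG of 1.29 (1.19 to 1.39, adjusted 0.16). These sums overlap, since the 9 shared regions include the 3878-base region at the start of Clec4e (chr6:123286039-123289917). That region held 1105 normalized reads in P199L-ERG cells, 530 in WT-ERG cells and 578 in empty-vector cells, which was 42.3%, 49.5% and 50.7% of the Clec4d sums. Its adjusted log2 ratio of P199L-ERG over WT-ERG was -0.04.

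At the start of Clec4d itself the marks went different ways. The H3K27ac region ending at the start (centred at -535 bases) held 149 normalized reads in P199L-ERG cells, 45.3 in WT-ERG cells and 110 in empty-vector cells. WT-ERG was below empty vector there by -1.25 (-1.83 to -0.76, adjusted -0.89). H3K9ac across the start instead was higher in WT-ERG, with 580 normalized reads in P199L-ERG cells, 659 in WT-ERG cells and 413 in empty-vector cells, and WT-ERG exceeded empty vector by 0.67 (0.49 to 0.86, adjusted 0.59). H3K4me3 across the start held 893 normalized reads in P199L-ERG cells, 486 in WT-ERG cells and 309 in empty-vector cells. P199L-ERG exceeded empty vector by 1.52 (1.34 to 1.72, adjusted 1.09) and WT-ERG exceeded it by 0.65 (0.44 to 0.87, adjusted 0.71). A 672-base H3K27ac region centred at -1773 bases held 150 normalized reads in P199L-ERG cells, 32.9 in WT-ERG cells and 16.1 in empty-vector cells, and P199L-ERG exceeded WT-ERG by 2.12 (1.64 to 2.79, adjusted 1.02). That region was chosen after its values were seen.

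Between Clec4d and Clec4e, an intronic region of Clec4d shared by both genes (chr6:123263544-123264909) was higher in both ERG lines. It held 316 normalized reads of H3K27ac in P199L-ERG cells, 151 in WT-ERG cells and 90.8 in empty-vector cells. The log2 ratio to empty vector was 1.77 (1.44 to 2.17, adjusted 1.16) for P199L-ERG and 0.72 (0.33 to 1.15, adjusted 0.98) for WT-ERG, with the empty-vector library common to both. Just upstream of Clec4e, a 511-base H3K27ac region (centred at -398 bases) had 99 reads in P199L-ERG cells, 18 in WT-ERG cells and 9 in empty-vector cells, and P199L-ERG exceeded WT-ERG by 2.23 (1.62 to 3.17, adjusted 0.56). A region within Clec4d, 22713 bases after the Clec4e start, held 171 normalized reads in P199L-ERG cells, 41.1 in WT-ERG cells and 49.4 in empty-vector cells. P199L-ERG was the highest line in 11 of 11 H3K27ac regions of Clec4e and 19 of 22 of Clec4d. Summed H3K9ac at Clec4e was 1513 in P199L-ERG cells, 1553 in WT-ERG cells and 1141 in empty-vector cells, and at Clec4d 2264 in P199L-ERG cells, 2391 in WT-ERG cells and 1698 in empty-vector cells. In both genes P199L-ERG and WT-ERG were within counting error of each other in H3K9ac, at -0.04 (-0.14 to 0.06, adjusted -0.08) for Clec4e and -0.08 (-0.16 to 0.00, adjusted -0.13) for Clec4d.

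Clec5a (chr6:40574894-40585821, minus strand) lies far from the other members on the chromosome. Its 24 H3K27ac regions held 1756 normalized reads in P199L-ERG cells, 719 in WT-ERG cells and 688 in empty-vector cells. P199L-ERG exceeded WT-ERG by 1.29 (1.16 to 1.42, adjusted 0.09), and WT-ERG and empty vector were within counting error at 0.06 (-0.10 to 0.22, adjusted 0.32). A 3489-base region across the start held 764 normalized reads in P199L-ERG cells, 363 in WT-ERG cells and 368 in empty-vector cells, and its adjusted ratio of P199L-ERG over WT-ERG was -0.03. P199L-ERG was the highest line in 22 of 24 regions, and one of them, centred at -4341 bases, held 117 normalized reads in P199L-ERG cells, 29.8 in WT-ERG cells and 32.2 in empty-vector cells. A region centred at -8612 bases, also assigned to Tas2r138, was higher in both ERG lines. It held 190 normalized reads in P199L-ERG cells, 78.2 in WT-ERG cells and 47.1 in empty-vector cells. The log2 ratio to empty vector there was 1.97 (1.52 to 2.54, adjusted 1.27) for P199L-ERG and 0.71 (0.16 to 1.32, adjusted 0.99) for WT-ERG.

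At the Clec5a start, 1 region held over 80% of the H3K9ac sum in each line. It had 1044 normalized reads in P199L-ERG cells, 1075 in WT-ERG cells and 793 in empty-vector cells, and WT-ERG exceeded empty vector by 0.44 (0.30 to 0.57, adjusted 0.41). The H3K4me3 region there held 1832 normalized reads in P199L-ERG cells, 1087 in WT-ERG cells and 991 in empty-vector cells. P199L-ERG exceeded WT-ERG by 0.75 (0.65 to 0.86) and by 0.48 adjusted.

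Clec7a (chr6:129461591-129472779, minus strand) was named by 0 regions of any mark, so it has no sum and no ratio. By position, 0 H3K27ac, 0 H3K9ac, 0 H3K4me3 and 0 H3K27me3 regions overlapped the gene or the 5 kb before its start. H3K4me1 had 4 regions there, which the deposited assignment gave to the neighbours Clec1a and Olr1. The region across the start (chr6:129472005-129473717) had 64 reads in P199L-ERG cells, 74 in WT-ERG cells and 62 in empty-vector cells and was called as a peak in every line. An intronic region of Clec7a (chr6:129470818-129471767) had 51 reads in P199L-ERG cells, 37 in WT-ERG cells and 14 in empty-vector cells, and both ERG lines exceeded empty vector by more than counting error, with intervals of the log2 ratio of 0.89 to 2.73 (adjusted ratio 1.12) for P199L-ERG and 0.69 to 2.61 (adjusted 0.81) for WT-ERG. Clec7a was the only one of the 6 with no H3K4me3 or acetylation region at its start.

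Single H3K27ac regions of the family repeated the pattern of the sums. Of 85 distinct regions, 75 were higher and 2 lower in P199L-ERG than WT-ERG cells by 1.5-fold or more, where 33.4% of all H3K27ac regions were higher and 31.4% lower by that much. After adjustment 27 of 85 were higher and 8 lower, where 16.6% of all regions were higher and 16.8% lower. Peaks were called at 81 of the 85 in P199L-ERG cells, 37 in WT-ERG cells and 39 in empty-vector cells. Of all 114597 H3K27ac regions, 78342 were called in P199L-ERG cells, 78325 in WT-ERG cells and 69995 in empty-vector cells. Regions called in every line made up 32.9% of the family's H3K27ac regions and 39.4% of all. By overlap with the other marks, 43 of the 85 also lay under H3K4me3 and H3K9ac, 38 lay under H3K4me1 without H3K4me3, and 4 were of neither kind. Of all H3K27ac regions, 33.1%, 60.2% and 6.76% were of these kinds, in the same order.

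**Figure D4:**
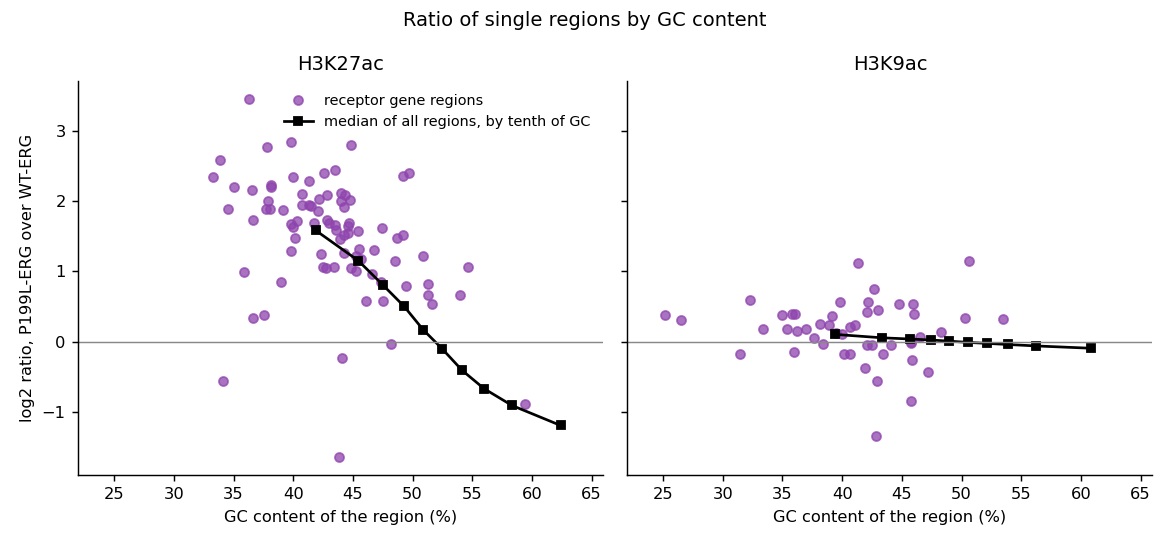
Log2 ratio of P199L-ERG over WT-ERG for each distinct receptor gene region (points) against its GC content, with the median of all regions of the mark in 10 equal groups of GC content (black squares), for H3K27ac and H3K9ac. The H3K27ac points gather about the low-GC end of the line, some above it and some below. That line has its ends at 1.58 and -1.19. The H3K9ac points lie around a nearly flat line.

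In H3K4me1 the deposited WT-ERG sum was highest at 4 of 5 genes, all but Clec4a2, and the share over all genes was not computed. In H3K9ac WT-ERG was also highest at Clec4d, Clec4e and Clec5a. H3K4me1 regions lowest in GC had medians of 0.82 for WT-ERG over empty vector and -0.40 for P199L-ERG over WT-ERG. After adjustment WT-ERG stayed highest at Clec4d, Clec4e and Clec5a. Clec12a was then at -0.07 for WT-ERG over empty vector and 0.06 for P199L-ERG over WT-ERG. The sums of Clec4d were 467 normalized reads in P199L-ERG cells, 739 in WT-ERG cells and 453 in empty-vector cells, and those of Clec5a were 1008 in P199L-ERG cells, 1287 in WT-ERG cells and 822 in empty-vector cells. Clec4d was the 1 gene lower in P199L-ERG than WT-ERG cells by 1.5-fold or more, at -0.66 (-0.84 to -0.49, adjusted -0.38), where 9.51% of all genes were lower by that much. Clec4d and Clec5a were higher in WT-ERG than empty-vector cells by 1.5-fold or more, at 0.70 (0.53 to 0.88) and 0.64 (0.51 to 0.78), where 11.2% of all genes were. After adjustment these were 0.17 and 0.15. Clec4a2 had 254 in P199L-ERG cells, 283 in WT-ERG cells and 292 in empty-vector cells, within counting error of each other.

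H3K27me3 had 0 regions at any of the 6 genes, in libraries that were shallower than those of the other marks.

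Genes with the most similar pattern were sought among 4632 genes by the root mean square difference over 12 values (4 marks in 3 lines, each mark centred on its mean). Genes that share a region with the one compared were left out. The values were as deposited, without the GC adjustment, and the part of GC content in the likeness was not tested. The search took genes at or above the median level in each mark, which none of the receptor genes reached in all 4 marks, so they could not be among those found. For Clec12a these were Fgd4 (0.08), Clec2d (0.11), Olfr19 (0.12), Anxa1 (0.12) and Serpinb1a (0.14). Among the nearest were Hgf for Clec4d (0.11), S100a8 (0.07) and Clec2d (0.10) for Clec4e, and S100a8 for Clec5a (0.06). The difference between Clec4e and Clec5a themselves was 0.03. For Clec4a2 the nearest genes, Fgd4 and Tg, were at 0.34 and 0.36, farther than Clec12a at 0.29.

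Of 28 further lectin receptors of myeloid cells, 17 had H3K27ac regions. In P199L-ERG against WT-ERG cells, 11 of them lay higher and 1 lower by 1.5-fold or more, and the median was 1.29 beside -0.36 over all genes. Of all genes, 11.3% were higher and 35.3% lower. After adjustment 2 of the 17 lay higher and 1 lower, and the median was 0.30, where 3.23% of all genes were higher and 3.95% lower. Clec12b, Clec4n, Clec4b1 and Clec4b2 share regions with the 6 genes, and among the 13 that do not, 7 were higher and 1 lower. Clec12b, a neighbouring inhibitory receptor, had 1968 normalized reads in P199L-ERG cells, 597 in WT-ERG cells and 738 in empty-vector cells (P199L-ERG over WT-ERG 1.72, adjusted 0.48). Clec2d, a lectin ligand of NK cell receptors, had 4105 in P199L-ERG cells, 1672 in WT-ERG cells and 1918 in empty-vector cells (1.29, adjusted 0.51). Clec11a, a secreted growth factor for progenitors, was at -0.65 (0.15 adjusted).

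Of 36 genes of the signalling pathway, 35 had H3K27ac regions, and in P199L-ERG against WT-ERG cells 2 were higher and 5 lower by 1.5-fold or more, beside the same shares of all genes. Their median was -0.20, and 0.09 adjusted, with 0 higher and 1 lower. Map3k7, the kinase TAK1, had 714 normalized reads in P199L-ERG cells, 1548 in WT-ERG cells and 1684 in empty-vector cells, in regions of 57.5% GC (-1.11, adjusted -0.16). Bcl10 and Malt1, which with CARD9 pass the signal to NF-kB, were at -0.89 (adjusted -0.60) and -0.90 (adjusted -0.04), and the NF-kB subunit Relb was at -0.81 (adjusted 0.03). GC content of the regions was 42.4% for Clec12b, 56.0% for Clec11a, 55.6% for Malt1 and 49.9% for Bcl10, and its part in these ratios was not tested.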

How the data were processed

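ChIP-seq libraries of 5 histone marks in 3 ER-Hoxb8 lines were analysed, 15 of 16 samples, and the pooled IgG control was not used here. Per the labels and the methods of the study, the authors trimmed reads with Cutadapt, dropped those under 30 nt, kept unique Bowtie alignments to mm10 and ran MACS2, and peaks of a mark were joined across lines into regions that GREAT linked to genes. For each region the authors deposited the read count per library, a signal called normalized reads, and a score of 1 or 0 for a called peak. Normalized reads equal the count times 1 factor per library, whose source is not given in the sources used here, nor is the handling of duplicate reads. Whether starts count from 0 or 1 is not stated, so coordinates are given as in the tables.

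Normalized reads were summed per gene over all regions assigned to it, and a region assigned to 2 genes counted for both. Ratios are log2((a + c)/(b + c)), where c is 10% of the mark's median normalized reads, and 1.5-fold was the threshold. Regions whose middle lay within 1 kb of the start or that spanned it were taken as at the start, which is wider than first planned. For the GC adjustment, regions were sorted into 20 classes of GC content and each of these into 10 classes of signal, and the median log2 offset of every library was set to 0 within each class. The computation was tested on simulated data. Gene positions are from GENCODE M21, and Python 3.11.15, numpy 2.4.6, pandas 2.3.3 and scipy 1.17.1 were used. The genes, lists and tests were chosen with earlier results of these data known. By rule, all 6 genes, the region of each mark nearest to the start, the 2 strongest distal H3K27ac regions, the genes nearest in pattern and the 4 genes with the largest H3K27ac ratio in each list could be named. Some genes that the rule names are not reported here. Nearest regions of low signal are not all described, and other regions, such as those with the most signal, were chosen after their values were seen.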

Additional observations from a re-analysis of the deposited data

Results flagged for a closer look

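At 2 genes and in 2 marks the ERG lines lay on opposite sides of the empty-vector library, with both counting intervals away from 0. In H3K27ac of Clec12a, P199L-ERG was above empty vector by 1.10, with a lower bound of 1.00, and WT-ERG below it by -0.47 (-0.59 to -0.34). In H3K27ac of Clec4a2 the values were 0.99 (0.82 to 1.17) for P199L-ERG and -0.86 (-1.11 to -0.63) for WT-ERG. H3K4me3 gave 0.54 (0.42 to 0.66) for P199L-ERG and -0.48 (-0.63 to -0.34) for WT-ERG at Clec12a, and 0.20 (0.01 to 0.39) for P199L-ERG and -1.52 (-1.82 to -1.27) for WT-ERG at Clec4a2. After adjustment for GC content, P199L-ERG was at 0.21, 0.05, -0.25 and -0.60 in these 4 cases and WT-ERG at -0.17, -0.62, -0.45 and -1.48, so that in H3K4me3 both lines lay below empty vector. The differences were not tested, since each line had 1 library, and both ratios share the empty-vector library.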

How the results depend on the processing

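Of 84 counts of members past 1.5-fold under the alternatives, 63 stayed within 1.5 times the value reported. The larger pseudocount, the 50 kb limit and the filter on weak regions moved no count by over 1.5 times. Adjusted for GC content, the count of P199L-ERG against WT-ERG was 1 in H3K27ac, 1 in H3K4me3 and 0 in H3K4me1. Against empty vector it was 0 in H3K27ac and 1 (lower) in H3K9ac for P199L-ERG, and 0 in H3K4me1 for WT-ERG. At 2-fold, P199L-ERG against WT-ERG gave 2 members in H3K4me3 and 0 in H3K4me1, P199L-ERG against empty vector gave 0 in H3K4me3, and WT-ERG against empty vector gave 0 in H3K27ac, H3K9ac and H3K4me1. Scaled to the total inside regions, H3K9ac gave 3 members for P199L-ERG and 4 for WT-ERG against empty vector, in the second case with 3 higher. With regions assigned to 1 gene only, WT-ERG against empty vector gave 3 members in H3K27ac (1 higher, 2 lower) and 3 in H3K9ac (2 higher, 1 lower), and P199L-ERG against empty vector gave 1 in H3K9ac, 1 in H3K4me3 and 1 in H3K4me1. The same setting gave 2 members in H3K4me3 and 2 in H3K4me1 for P199L-ERG against WT-ERG, and it turned the log2 ratio of Clec5a in H3K4me3 against empty vector to -0.0067, since it leaves out the region across the start. H3K27me3 had no member region and gave no value. No paired analysis was possible because each mark and line had 1 library.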

Other observations

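A 339-base H3K4me1 region centred at -7471 bases from the start of Clec4e held 9 reads in P199L-ERG cells, 62 in WT-ERG cells and 11 in empty-vector cells and was called as a peak in WT-ERG cells alone. Its log2 ratio was -2.58 (-4.29 to -2.08) for P199L-ERG over WT-ERG and 2.31 (1.77 to 3.78) for WT-ERG over empty vector, and 2.38 adjusted in the second case. It overlapped no region of another mark. An intronic H3K27ac region of Clec5a of 187 bases had 5 reads in P199L-ERG cells, 19 in WT-ERG cells and 5 in empty-vector cells and was also called in WT-ERG cells alone. Both regions were chosen after their values were seen.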
